A study of Mus musculus with 8 samples.

Results

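The genes described here are 10 surface and signalling genes of microglia, the resident macrophages of the brain: Csf1r, Cx3cr1, P2ry12, Itgam, Ptprc, Trem2, Tyrobp, Fcer1g, Tmem119 and Aif1. They were chosen by name, with earlier results of these data known. Each was read by 1 transcript cluster (the set of probes for 1 gene) annotated with that symbol alone. They are 10 of 30738 genes measured on 8 arrays of primary mouse cultures, in which radial glia were differentiated for 2 weeks towards ependyma, the ciliated cell layer that lines the brain ventricles. By their titles, 4 arrays are of cultures to which epidermal growth factor (EGF) was added at 20 ng/ml when differentiation began, and 4 are of untreated cultures kept in that medium (DMEM/F12 with 2% FBS and penstrep) without EGF. The source names conflict with the titles: they give MLN4924, an inhibitor of neddylation, for the arrays titled EGF, and DMSO, a common solvent, for the arrays titled untreated. "EGF" and "untreated" below mean the arrays so titled. The sources used here state no strain, age or number of animals and do not say that replicates are separate cultures, so p-values rest on a spread between arrays that may be technical.

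Microglia arise from yolk sac progenitors and not from radial glia, and primary glial cultures are known to carry some of them along. They depend on the receptor Csf1r for survival, sense their surroundings with receptors such as Cx3cr1 and P2ry12, and adhere through integrins such as the one that holds Itgam. Several of their receptors have no signalling tail of their own and pass signals through the adaptors Tyrobp and Fcer1g, whose immunoreceptor tyrosine-based activation motif (ITAM) recruits the kinase Syk. Many of these genes are shared with other macrophages and blood leukocytes, while P2ry12 and Tmem119 are the members best known for setting resting microglia apart.

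All values are log2 signals of 1 cluster, where a difference of 1 is 2-fold, and levels of different clusters are not ranked against each other. The median over all clusters was 4.71 to 4.82 in the EGF arrays and 4.56 to 4.60 in the untreated arrays, and all genes together had a median log2 fold change of 0.17. Correlations across clusters were 0.994 to 0.995 among the EGF arrays and 0.996 to 0.997 among the untreated arrays. No detection calls were used here, so 1564 olfactory, vomeronasal and taste receptor genes show where signals of genes with no known use in glia lie. Signals under the 95th percentile of these genes, which was 4.98 to 5.14 in the EGF arrays and 4.71 to 4.90 in the untreated arrays, are called within the receptor range. These 1564 genes had a median log2 fold change of 0.23, and by the test given below 524 were higher and 5 lower with EGF. Small rises of dim genes are therefore common on these arrays. The ependymal label was checked on 13 measured ependymal markers, whose mean level was 5.57 to 5.69 in the EGF arrays and 10.67 to 11.14 in the untreated arrays.

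With EGF, 9 of the 10 genes fell and 1, Tmem119, did not pass the test. Fcer1g, Itgam, Tyrobp and Csf1r were 10.3-fold to 23.0-fold lower, and Ptprc and Cx3cr1 were 6.93-fold and 6.86-fold lower. Aif1, Trem2 and P2ry12 fell by less than 2-fold. The median log2 fold change of the 10 genes was -2.79, against 0.17 over all genes. The test was that of limma with Benjamini-Hochberg adjustment over all 30738 genes at 0.05. By it 20.7% of all genes were lower with EGF and 39.7% were higher. Those shares were 24.8% and 23.7% after a further quantile normalization, 27.8% and 18.7% with arrays centred on their medians, and 27.3% and 20.6% after cyclic loess. A fall of at least 2-fold was called in 6 of the 10 genes and in 7.42% of all genes. All EGF arrays lay below all untreated arrays in 9 of the 10 genes and in 19.9% of all genes. In RNA from whole cultures, fewer cells of a type and less RNA per cell cannot be told apart.

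**Figure D1:**
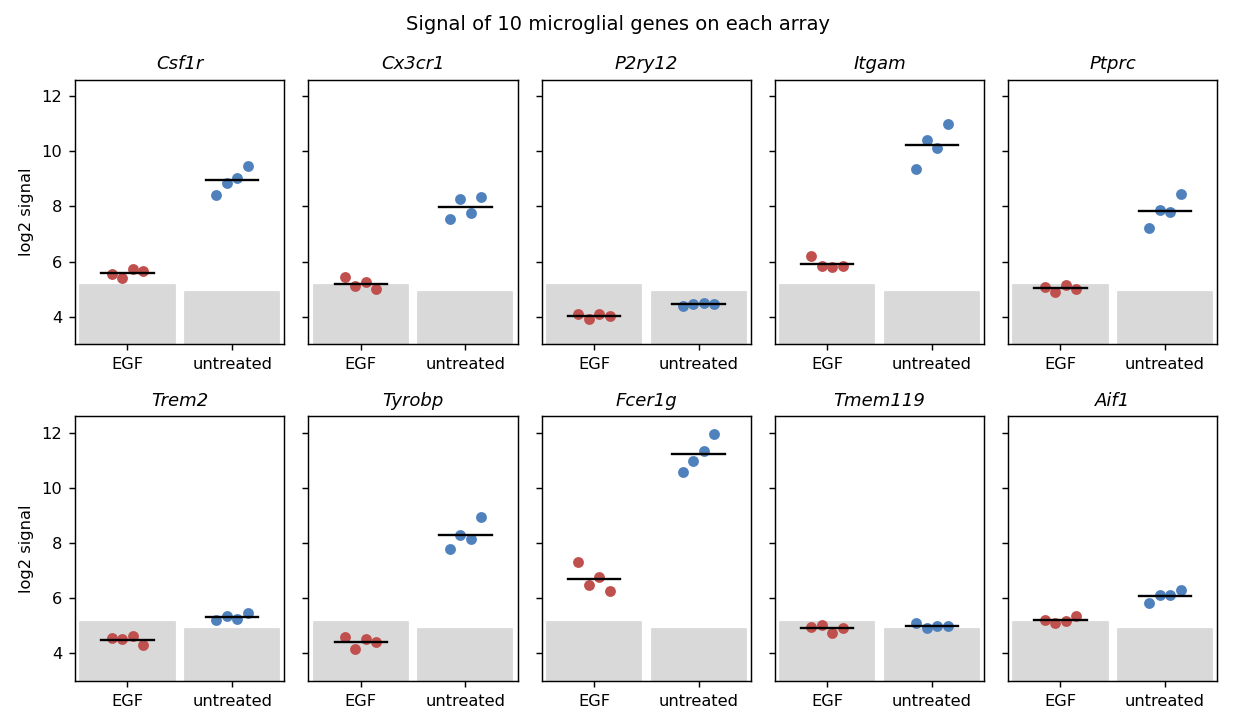
Log2 signal (vertical axis) of each of the 10 genes on the 4 EGF arrays (red, left) and the 4 untreated arrays (blue, right), with replicates 1 to 4 from left to right and the group mean as a black line; grey marks signals up to the highest receptor 95th percentile of the group. Fcer1g shows the widest parting of the groups, and P2ry12 sits in the grey on all 8 arrays.

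Csf1r, the receptor for the growth factors Csf1 and Il34, had signals of 5.54, 5.39, 5.72 and 5.67 in the EGF arrays and 8.43, 8.86, 9.03 and 9.48 in the untreated arrays. The groups were parted by 2.71, more than the 1.05 between the highest and the lowest untreated array. Csf1r fell by 3.37 ± 0.19 on the log2 scale (SE, n = 4 each, limma adjusted p = 1.57e-07). Cx3cr1, the receptor for the chemokine fractalkine, had signals of 5.43, 5.11, 5.26 and 5.01 in the EGF arrays and 7.54, 8.27, 7.78 and 8.33 in the untreated arrays. Its groups were parted by 2.11, with every untreated array above every EGF array. Cx3cr1 fell by 2.78 ± 0.17 (SE, n = 4 each, limma adjusted p = 3.79e-07), and EGF replicate 4 was within the receptor range, where a fold can be understated.

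P2ry12, the ADP receptor that guides microglial processes to damage, had signals of 4.08, 3.92, 4.09 and 4.04 in the EGF arrays and 4.38, 4.45, 4.51 and 4.45 in the untreated arrays. The groups did not overlap and lay 0.29 apart. P2ry12 fell by 0.41 ± 0.06 (SE, n = 4 each, limma adjusted p = 0.000288), and all 8 arrays were within the receptor range, so this is a difference between dim signals.

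Itgam, the alpha subunit of the integrin CD11b/CD18, had signals of 6.20, 5.83, 5.79 and 5.85 in the EGF arrays and 9.36, 10.41, 10.14 and 10.99 in the untreated arrays. The untreated arrays spread over 1.63, the widest spread of the 10 genes in that group, and the groups were still 3.16 apart. Itgam fell by 4.31 ± 0.28 (SE, n = 4 each, limma adjusted p = 4.9e-07). Ptprc, the leukocyte phosphatase CD45 that controls Src family kinases, had signals of 5.09, 4.90, 5.16 and 5.02 in the EGF arrays and 7.22, 7.86, 7.79 and 8.47 in the untreated arrays. The groups were 2.06 apart, with untreated replicate 4 the highest and untreated replicate 1 the lowest of the untreated arrays. Ptprc fell by 2.79 ± 0.21 (SE, n = 4 each, limma adjusted p = 1.48e-06), and EGF replicates 2 and 4 were within the receptor range.

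Fcer1g, the common gamma chain of Fc receptors, had the largest change of the 10 genes. Its signals were 7.31, 6.47, 6.78 and 6.26 in the EGF arrays and 10.60, 11.00, 11.33 and 11.98 in the untreated arrays. All of the EGF arrays stayed above the receptor range, and the groups were 3.29 apart. Fcer1g fell by 4.52 ± 0.29 (SE, n = 4 each, limma adjusted p = 4.96e-07), which ranks 147 among the falls of all genes. Tyrobp, the adaptor also called DAP12, had signals of 4.59, 4.16, 4.53 and 4.40 in the EGF arrays and 7.79, 8.30, 8.16 and 8.96 in the untreated arrays. All 4 EGF arrays were within the receptor range and all untreated arrays above it, 3.20 apart. Tyrobp fell by 3.88 ± 0.21 (SE, n = 4 each, limma adjusted p = 1.38e-07).

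Trem2, a lipid-sensing receptor that signals through Tyrobp, had signals of 4.55, 4.52, 4.62 and 4.29 in the EGF arrays and 5.20, 5.36, 5.23 and 5.47 in the untreated arrays. The groups did not overlap: the EGF arrays were within the receptor range and the untreated arrays above it, 0.58 apart. Trem2 fell by 0.82 ± 0.09 (SE, n = 4 each, limma adjusted p = 2.56e-05).

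Aif1, which encodes the actin-binding protein Iba1, had signals of 5.22, 5.11, 5.19 and 5.37 in the EGF arrays and 5.81, 6.13, 6.11 and 6.31 in the untreated arrays. No array was within the receptor range, and the groups were 0.44 apart. Aif1 fell by 0.87 ± 0.11 (SE, n = 4 each, limma adjusted p = 5.2e-05). Tmem119, a membrane protein used to mark resident microglia, had signals of 4.97, 5.04, 4.75 and 4.93 in the EGF arrays and 5.10, 4.91, 4.99 and 4.98 in the untreated arrays. The groups overlapped, and 3 of the 4 EGF arrays and none of the untreated arrays were within the receptor range. That range reached higher in the EGF arrays, so this count is not a difference in Tmem119. The change of -0.07 ± 0.08 (SE, n = 4 each) did not pass (limma adjusted p = 0.425). Tmem119 passed as lower after each array was centred on its median (-0.26, limma adjusted p = 0.037) and after cyclic loess (-0.26, limma adjusted p = 0.0324).

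**Figure D2:**
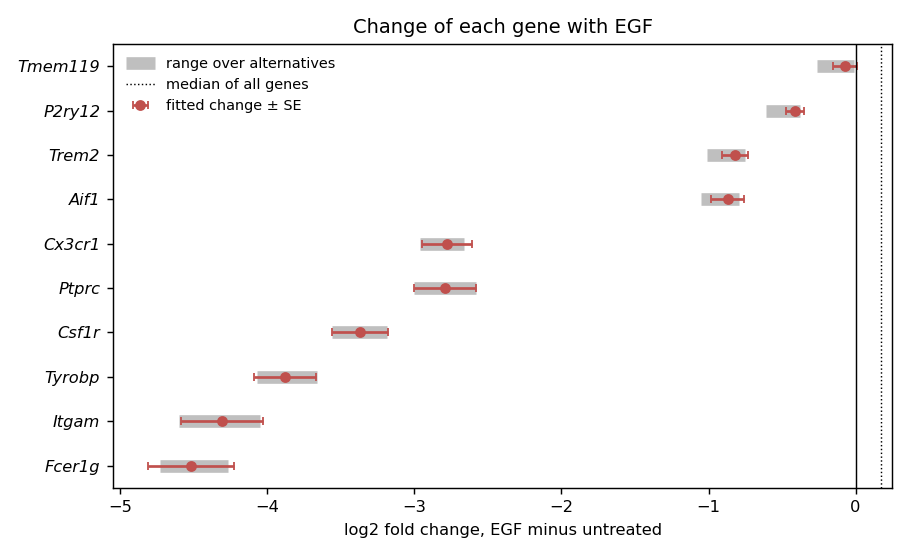
Log2 fold change (horizontal axis, EGF minus untreated) of each of the 10 genes with its SE (red) and the range of its values over the alternative settings (grey bar); the dotted line is the median of all genes, at 0.17. Cx3cr1, Ptprc, Csf1r, Tyrobp, Itgam and Fcer1g lie at -2.78 to -4.52, apart from Aif1, Trem2, P2ry12 and Tmem119 at -0.87 to -0.07.

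PU.1, a transcription factor that macrophages need, binds purine-rich sites with a GGAA core. Promoters were therefore searched for GAGGAA on both strands (TTCCTC on the other) in the 250 bases before the annotated start, in RefSeq sequence of build GRCm38.p6. Of the 10 genes 7 matched the promoter table, with 8 promoters, and Csf1r, Tyrobp and Tmem119 did not. The motif was found in 4 of the 8 promoters, those of Itgam, Trem2 and Aif1 and 1 of the 2 of Ptprc, and in 23.3% of all 32851 promoters. The other Ptprc promoter (chr1:138175127-138175376), which overlaps the first, had 0 matches, as did the promoters of Fcer1g, Cx3cr1 and P2ry12. The longer form GAGGAAGT, which holds the shorter, was found in 0 of the 8 and in 2.44% of all. The promoters of Itgam and Fcer1g and the Ptprc promoter with a match are shown as examples from genes that fell strongly. That of Trem2 is shown because it holds the motif and the gene fell by less than 2-fold. The promoter of Cx3cr1, which also fell strongly, is not shown. Capitals mark the motif, which lies 84 and 15 bases before the start of Itgam, 158 before this start of Ptprc and 40 before that of Trem2.
Itgam, chr7:128062390-128062639, plus strand: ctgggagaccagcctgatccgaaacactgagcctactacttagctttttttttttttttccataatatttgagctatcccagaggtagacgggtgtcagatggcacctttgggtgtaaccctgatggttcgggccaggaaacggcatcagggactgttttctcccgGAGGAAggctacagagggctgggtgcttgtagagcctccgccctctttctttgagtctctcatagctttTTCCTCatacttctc
Ptprc, chr1:138175306-138175555, minus strand: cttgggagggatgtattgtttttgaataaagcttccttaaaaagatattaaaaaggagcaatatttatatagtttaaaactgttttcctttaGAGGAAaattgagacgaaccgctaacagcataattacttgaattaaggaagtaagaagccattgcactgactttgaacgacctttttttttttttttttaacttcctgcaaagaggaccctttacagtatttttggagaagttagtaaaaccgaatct
Trem2, chr17:48346151-48346400, plus strand: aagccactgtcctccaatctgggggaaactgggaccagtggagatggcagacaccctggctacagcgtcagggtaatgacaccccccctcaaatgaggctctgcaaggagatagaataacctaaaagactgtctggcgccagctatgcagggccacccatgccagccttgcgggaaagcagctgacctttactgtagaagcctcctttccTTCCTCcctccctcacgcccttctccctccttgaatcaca
Fcer1g, chr1:171234350-171234599, minus strand: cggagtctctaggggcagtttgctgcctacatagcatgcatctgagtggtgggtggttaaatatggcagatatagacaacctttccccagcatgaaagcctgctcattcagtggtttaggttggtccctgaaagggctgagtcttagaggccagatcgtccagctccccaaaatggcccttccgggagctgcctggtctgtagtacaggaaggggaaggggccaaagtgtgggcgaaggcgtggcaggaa
Fcer1g, with the largest fall of the 10 genes, has no GAGGAA in this window. A match describes these letters only and is not evidence of binding.

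The untreated arrays differed among themselves in the same way for most of the 10 genes. Untreated replicate 4 was the highest of its group in 8 genes, and untreated replicate 1 was the lowest in 9. Averaged over the 10 genes, deviations from the group mean were 0.14, -0.11, 0.04 and -0.07 in EGF replicates 1 to 4 and -0.39, 0.02, -0.03 and 0.41 in untreated replicates 1 to 4. The median deviation of all genes was at most 0.01 from 0 on each array. Of 18 measured genes that leukocytes in general express, untreated replicate 4 was the highest in 18 (mean deviation 0.43) and untreated replicate 1 the lowest in 14 (mean deviation -0.34). Ependymal markers deviated by -0.27, 0.09, 0.21 and -0.03 in untreated replicates 1 to 4, and fibroblast and mural cell markers by 0.25, -0.12, -0.45 and 0.31. The part of the other cell types in the spread of the 10 genes was not tested.

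**Figure D3:**
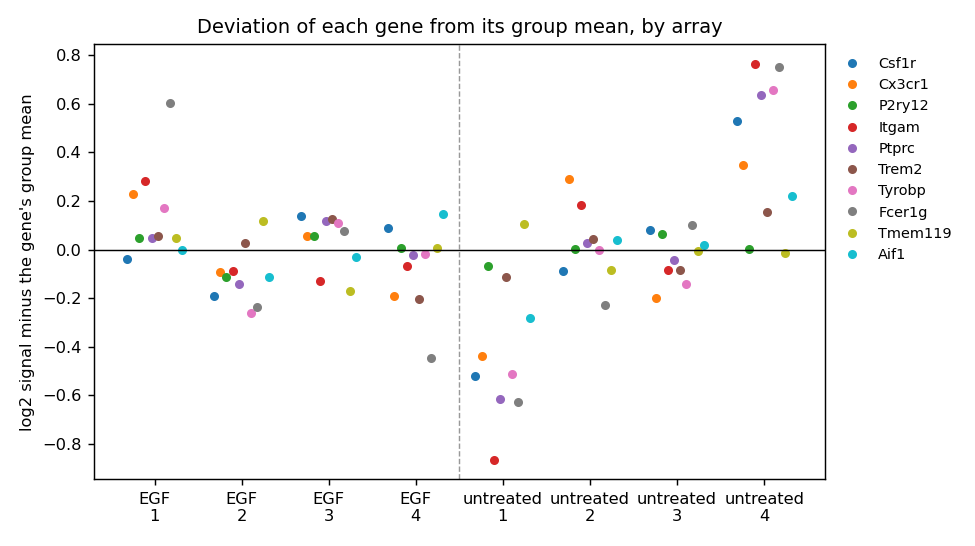
Log2 signal minus the gene's own group mean (vertical axis) for the 10 genes (colours) on each array (horizontal axis), with the EGF arrays left of the dashed line. Untreated replicate 1 reaches down to -0.87 and untreated replicate 4 up to 0.77, both in Itgam.

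Unequal changes were tested for 4 pairs of genes, as the difference of their log2 signals within each array. Tyrobp minus its receptor partner Trem2 was -0.07 ± 0.21 in the EGF arrays and 2.99 ± 0.37 in the untreated arrays (SD, n = 4 each), a shift of -3.06. Itgam minus Itgb2, the beta subunit of the same integrin, was -0.64 ± 0.16 in the EGF arrays and 1.28 ± 0.31 in the untreated arrays (SD, n = 4 each), a shift of -1.92. The groups did not overlap in either pair, and the signal of the first gene fell further than that of its partner. Fcer1g minus Fcgr3, an Fc receptor that needs it, was 0.95 ± 0.24 in the EGF arrays and 4.54 ± 0.58 in the untreated arrays (SD, n = 4 each), a shift of -3.59. P2ry12 minus Aif1 was -1.19 ± 0.10 in the EGF arrays and -1.64 ± 0.18 in the untreated arrays (SD, n = 4 each), a shift of 0.45. The exact permutation test, two-sided, gave p = 0.0286 for each pair, its smallest possible value with 4 arrays a group, and an adjusted p of 0.0286 over the 4 pairs. P2ry12 was within the receptor range on all 8 arrays and had no room for a fall that could be read, so its pair with Aif1 does not show which gene fell further. Trem2 and Tyrobp were within the range on all EGF arrays, and Trem2 was at most 5.47 in the untreated arrays, so a larger fall of Trem2 could not have been read.

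The wider pathway was described with 9 lists, which hold 141 measured genes beside the 10 members. Of these 88 fell, 23 rose and 30 missed the threshold (median -0.67), beside 20.7% lower and 39.7% higher among all genes. After the 3 other scalings 96 or 97 fell and 12 to 14 rose.

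Of 11 measured genes for ligands of these receptors 6 fell, 2 rose and 3 missed the threshold (median -0.69). Csf1, a ligand of Csf1r that astrocytes also make, had signals of 12.28, 12.25, 12.07 and 12.39 in the EGF arrays and 14.81, 14.78, 14.78 and 14.75 in the untreated arrays. Its untreated arrays lay between 14.75 and 14.81, without the spread seen in the receptor gene. Csf1 fell by 2.53 ± 0.07 (SE, n = 4 each, limma adjusted p = 1.69e-09). Il34, the other ligand of Csf1r and named after its values were seen, averaged 5.42 ± 0.06 in the EGF arrays and 6.11 ± 0.05 in the untreated arrays (SD, n = 4 each) and fell by 0.69 ± 0.06 (SE). Cx3cl1, the ligand of Cx3cr1, fell by 1.39 ± 0.07 (SE), Tgfb1, a factor that maintains microglia, fell by 1.34 ± 0.14, and Icam1, an adhesion partner of the CD11b integrin, fell by 3.56 ± 0.15.

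Of 17 measured receptors that pair with Tyrobp or Fcer1g 9 fell, 2 rose and 6 missed the threshold (median -0.47), and 5 were within the receptor range on all 8 arrays. Fcgr1, the high-affinity Fc receptor that uses Fcer1g, had signals of 5.16, 5.13, 5.29 and 5.12 in the EGF arrays and 6.40, 7.19, 6.97 and 7.92 in the untreated arrays. Its untreated arrays were ordered like those of Itgam, and it fell by 1.95 ± 0.25 (SE, n = 4 each, limma adjusted p = 8.8e-05). The C-type lectin gene Clec4d fell by 3.59 ± 0.17 (SE), the Tyrobp partner Clec5a fell by 2.99 ± 0.11 and Cd300ld fell by 1.88 ± 0.15. Clec5a was within the receptor range on all 4 EGF arrays, so its fold can be understated.

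Downstream of the adaptors, 15 of 19 measured kinases and adaptors fell, 1 rose and 3 missed the threshold (median -1.41). Pik3ap1, an adaptor for PI3 kinase, had signals of 6.23, 5.95, 6.04 and 5.88 in the EGF arrays and 9.44, 9.81, 9.84 and 10.81 in the untreated arrays. The groups did not overlap, and Pik3ap1 fell by 3.95 ± 0.24 (SE, n = 4 each, limma adjusted p = 3.27e-07). Vav1, an exchange factor for Rac, fell by 3.51 ± 0.19 (SE), the phosphatase gene Ptpn6 fell by 3.04 ± 0.17 and the adaptor gene Blnk fell by 2.78 ± 0.19. Vav1 was within the receptor range on all 4 EGF arrays, so its fall can be understated too. Syk, the kinase that binds the ITAM and named after its values were seen, averaged 5.53 ± 0.10 in the EGF arrays and 6.99 ± 0.32 in the untreated arrays (SD, n = 4 each) and fell by 1.46 ± 0.14 (SE).

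Of 13 integrin subunits and partners of leukocytes 8 fell, 3 rose and 2 missed the threshold (median -0.57). Itgb2, the partner of Itgam, had signals of 6.62, 6.58, 6.43 and 6.61 in the EGF arrays and 8.48, 8.83, 8.95 and 9.53 in the untreated arrays. The groups did not overlap, and Itgb2 fell by 2.39 ± 0.18 (SE, n = 4 each, limma adjusted p = 1.56e-06). Apbb1ip and Fermt3, which activate integrins from inside the cell, both fell: Apbb1ip fell by 2.62 ± 0.18 and Fermt3 fell by 2.41 ± 0.22 (SE), and the alpha subunit gene Itgal fell by 2.47 ± 0.27.

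Of 13 purinergic and chemoattractant receptors and related genes 5 fell, 1 rose and 7 missed the threshold (median -0.17). C3ar1, the receptor for complement fragment C3a, fell by 4.31 ± 0.23 (SE), Cxcr4 fell by 2.76 ± 0.13 and the C5a receptor gene C5ar1 fell by 1.85 ± 0.11, with all 4 EGF arrays of C5ar1 within the receptor range. Entpd1, which breaks down extracellular ATP, rose by 1.90 ± 0.08 (SE). Gpr34 and P2ry13, marks of resting microglia like P2ry12 and named after their values were seen, did not pass and were within the receptor range on all 8 arrays. Gpr34 averaged 4.40 ± 0.03 in the EGF arrays and 4.35 ± 0.16 in the untreated arrays (SD, n = 4 each), and P2ry13 averaged 4.40 ± 0.40 in the EGF arrays and 4.46 ± 0.31 in the untreated arrays (SD, n = 4 each).

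Of 14 transcription factors of microglia 7 fell, 6 rose and 1 missed the threshold (median -0.28). Spi1, which encodes PU.1, had signals of 5.29, 5.37, 5.17 and 5.17 in the EGF arrays and 7.51, 8.04, 7.95 and 8.53 in the untreated arrays. As in Itgam, untreated replicate 4 was the highest and untreated replicate 1 the lowest of their group. Spi1 fell by 2.76 ± 0.18 (SE, n = 4 each, limma adjusted p = 4.31e-07). Bhlhe41, Mef2c and Sall3, which other cells of the brain also use, rose by 3.05 ± 0.07, 2.00 ± 0.08 and 1.43 ± 0.08 (SE).

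Other genes known from resting microglia went both ways: of 21 measured 9 fell, 5 rose and 7 missed the threshold (median -0.02), and 7 were within the receptor range on all 8 arrays. Fcrls, a microglial Fc receptor-like gene, had signals of 5.04, 4.83, 5.04 and 4.60 in the EGF arrays and 6.45, 7.24, 6.76 and 9.05 in the untreated arrays. Untreated replicate 4 stood above the other untreated arrays in Fcrls, and the groups did not overlap. Fcrls fell by 2.50 ± 0.47 (SE, n = 4 each, limma adjusted p = 0.00111), the sialic acid receptor gene Cd33 fell by 1.95 ± 0.14 and Ecscr fell by 2.63 ± 0.07, and Adgrg1 rose by 2.62 ± 0.10. Adgrg1 was bright in both groups, at a mean of 15.75 in the EGF arrays and 13.13 in the untreated arrays. In Ecscr untreated replicate 4 was not the highest (8.89, 8.74, 8.87 and 8.72). The part of other cells in the signals of this list was not tested.

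Of 18 measured genes of leukocytes in general, all 18 fell (median -1.74). Rac2, a small GTPase of blood cells, had signals of 7.29, 6.93, 6.71 and 6.90 in the EGF arrays and 11.55, 12.29, 12.22 and 13.02 in the untreated arrays. The groups did not overlap, and Rac2 fell by 5.31 ± 0.26 (SE, n = 4 each, limma adjusted p = 6.16e-08). Lcp1, an actin bundler, fell by 4.52 ± 0.24 (SE), Nckap1l fell by 3.98 ± 0.20 and the tetraspanin gene Cd53 fell by 3.56 ± 0.22.

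**Figure D4:**
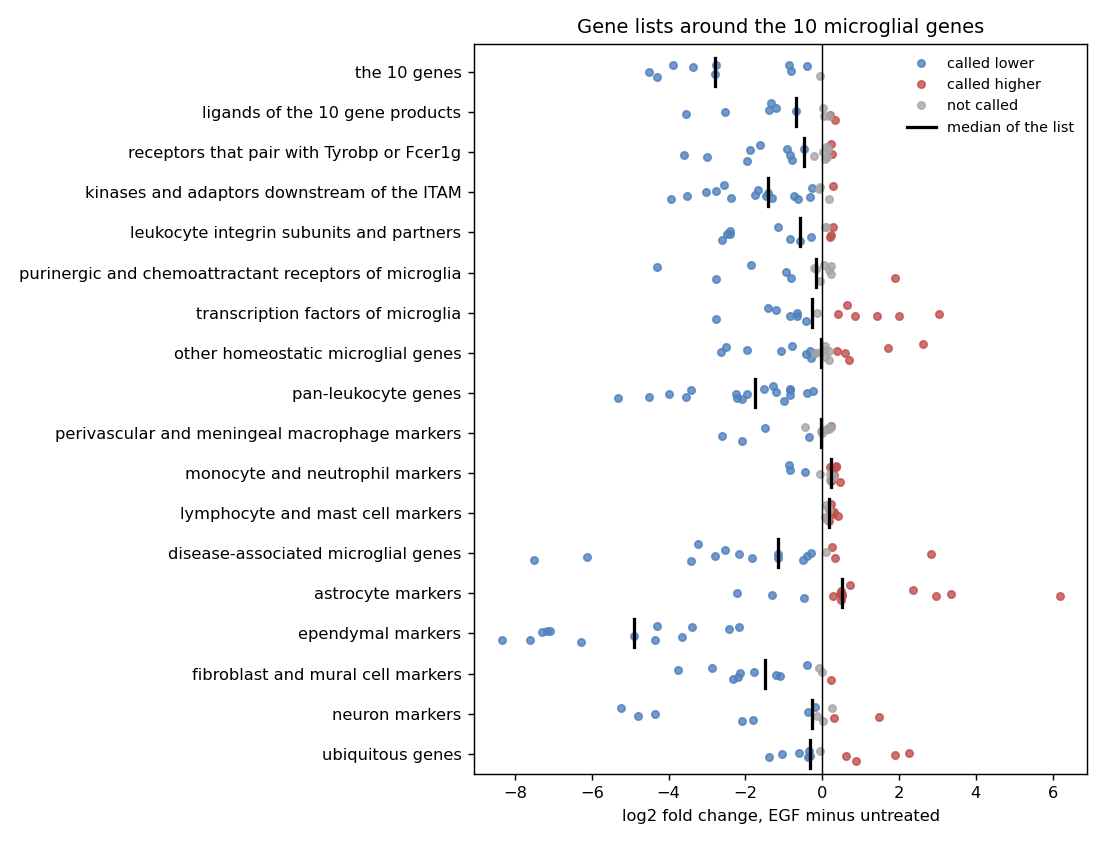
Log2 fold change (horizontal axis, EGF minus untreated) of every measured gene of each list (rows), coloured by whether it passed as lower (blue), as higher (red) or not (grey), with the list's median as a black line. All 18 pan-leukocyte genes and all 13 ependymal markers lie below 0, and lymphocyte and mast cell markers lie close to 0. The row of ligands also holds Tgfb1, which is not such a ligand.

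Markers of other cells that such cultures could hold were read the same way. Of 12 perivascular and meningeal macrophage markers 4 fell, 1 rose and 7 missed the threshold (median -0.02), with a mean level of 4.48 to 4.64 in the EGF arrays and 4.90 to 5.49 in the untreated arrays. Ms4a7 fell by 2.60 ± 0.19 (SE), Stab1 fell by 2.08 ± 0.14, Folr2 fell by 1.48 ± 0.16 and Mrc1 fell by 0.34 ± 0.12, and these folds can be understated. Ms4a7, Stab1 and Mrc1 were within the receptor range on all EGF arrays, as were 11 of the 12 markers, and 5 of the 12 were within it on all 8 arrays. Of 15 monocyte and neutrophil markers 3 fell, 8 rose and 4 did not pass, and 10 were within the receptor range on all 8 arrays. Their median of 0.23 was 0.03 or 0.04 after the other scalings. Of 14 lymphocyte and mast cell markers 0 fell and 8 rose, and 13 were within the receptor range on all 8 arrays. Their median of 0.18 was -0.01 after quantile normalization, so neither direction is settled.

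Of 17 genes known to rise in disease-associated microglia 13 fell, 3 rose and 1 missed the threshold (median -1.15). Ch25h, a cholesterol hydroxylase gene, fell by 7.51 ± 0.20 (SE), Lilrb4a fell by 6.12 ± 0.24, Gpnmb fell by 3.41 ± 0.26 and Igf1 fell by 3.23 ± 0.16. Among the 3 that rose, Fabp5, named after its values were seen, rose most, by 2.84 ± 0.07 (SE). The part of other cells in the signals of these 17 genes was not tested. All 13 ependymal markers fell (median -4.89). Of 12 neuron markers 7 fell, 2 rose and 3 missed the threshold (median -0.27, mean level 6.78 to 6.82 in the EGF arrays and 8.05 to 8.33 in the untreated arrays). Of 12 fibroblast and mural cell markers 9 fell, 1 rose and 2 missed the threshold (median -1.49, mean level 7.12 to 7.20 in the EGF arrays and 8.19 to 8.95 in the untreated arrays). Of 14 astrocyte markers 11 rose and 3 fell (median 0.51, mean level 11.38 to 11.63 in the EGF arrays and 10.45 to 10.48 in the untreated arrays). The largest changes among them were rises: Ntsr2 rose by 6.18 ± 0.11, Aldh1l1 by 3.36 ± 0.12, Agt by 2.95 ± 0.19 and Slc1a2 by 2.37 ± 0.07 (SE). The 3 that fell, named after their values were seen, were S100b, Aqp4 and Gfap: S100b fell by 2.23 ± 0.10, Aqp4 fell by 1.31 ± 0.06 and Gfap fell by 0.48 ± 0.08 (SE). The part of these cell types in the changes of the 10 genes was not tested.

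Profiles most like the mean profile of the members were ranked by the root mean square difference of centred log2 signals over the 8 arrays. The search covered 11821 genes with a mean of at least 6 in the higher group. The members and genes with clone or predicted names were left out. The 10 nearest were Lpcat2 (0.117), Tlr13 (0.122), Itgb2 (0.123), Fmo1 (0.125), Pld4 (0.134), Ikbke (0.139), H2-M2 (0.144), Apbb1ip (0.145), Cfap45 (0.149) and Nlrp3 (0.149). Of the members themselves Cx3cr1 was nearest to their mean profile (0.235) and Tmem119 farthest (1.18), so all 10 genes above were nearer to it than any member. The mean joins members that fell strongly with members that changed little. Cfap45, a cilia and flagella associated gene, is among the 10, so nearness does not show that a gene is one of microglia. The measure describes these 8 arrays only.

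The authors' deposited table of group averages, headed gf and ctrl, lists 7 of the 10 genes, all lower in gf. In the authors' deposited table Cx3cr1 had 7.39 in gf and 10.5 in ctrl. Csf1r had 9.39 in gf and 12.98 in ctrl in the authors' deposited table. The authors' deposited table gives P2ry12 4.29 in gf and 6.90 in ctrl, a difference of -2.61 against -0.41 in the arrays here. False discovery rates of the 7 genes in the authors' deposited table were 0.00335 to 0.0390. The smallest absolute difference among its 4136 rows was 1.0 on the log2 scale. All of its rows were also under 0.05 in the authors' own test. Any gene listed there thus had a large difference, so the sizes and rates of the 7 genes are no independent check. P2ry12 could not have been listed with a difference of -0.41 in that table. Itgam, Tmem119 and Aif1 are not among its rows, which does not show how they changed there. The averages in the authors' deposited table did not match the means of the 8 arrays: 34.9% of its gf averages differed by over 1 on the log2 scale from the EGF means, and 36.7% of its ctrl averages from the untreated means. The sources used here do not say which arrays that table rests on, and the cause was not tested.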

How the data were processed

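For the 8 arrays the authors deposited log2 signals of each transcript cluster. Base 2 was inferred from how high the values reach and from the second table's header. The submitters' processing notes name RMA, affy and limma, with no versions or roles. A second deposited table holds log2 averages of 2 groups with a false discovery rate and p-value per cluster, per the file headers. The sources used here do not say how arrays were centred.

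Groups follow the sample titles. Cluster names came from the platform annotation: of 65956 clusters 30646 had 1 symbol, 2168 several and 33142 none, and 646 of those with several resolved to 1 gene. RefSeq's gene table (GRCm38.p6) held 31290 of the 31292 clusters left with a single gene. For 439 genes with several clusters the one with the highest mean was used.

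Values were fitted with limma 3.58.1 (R 4.3.3, lmFit and eBayes), two-sided, with no filter on dim clusters, and p-values were adjusted over 30738 genes at 0.05. Only the main limma fit was tested on simulated data, in which far fewer genes were changed than were called here. Genes named are the 10 members, the 10 nearest profiles and the partners in the pairs. Up to 4 called genes with the largest absolute change are also named in most lists. The genes so picked are not given with their changes for the ependymal, fibroblast and mural cell, monocyte and neutrophil, lymphocyte and mast cell and ubiquitous lists. Genes marked as named after their values were seen lie outside this rule. Members and lists were chosen with earlier results of these data known. Each list was described by its counts and median. Alternatives were 3 scalings, leaving out each array, leaving out dim clusters, averaging a gene's clusters, weighting arrays, eBayes with trend and robust, treat at 1.5-fold, a replicate block and a threshold of 0.01. The number of arrays, 4 a group, limits the precision. Plots used Python 3.11.15, pandas 2.3.3, numpy 2.4.6 and matplotlib 3.10.9.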

Additional observations from a re-analysis of the deposited data

Results flagged for a closer look

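In 172 groups of 4 arrays, from 86 genes, 6 groups (3.49%) had an array whose gap to its nearest neighbour passed Dixon's critical value as a share of the group's range. Chance gives about 1 in 20 such groups. The 86 genes did not include every gene of the lists, so the share describes those genes only. Cd209f and Fcgr4, named after their values were seen, were not among them, and in both untreated replicate 4 stood apart. In untreated replicates 1 to 4 Cd209f had 4.42, 4.53, 4.58 and 7.15, and Fcgr4 had 4.38, 4.40, 4.38 and 4.81. Among the members, Itgam in the EGF arrays had a gap of 0.854 of the range, with EGF replicate 1 at 6.20 and the nearest array at 5.85. C3ar1 in the EGF arrays had a gap of 0.982, with EGF replicate 2 at 6.26 and the nearest array at 6.82. Folr2 in the EGF arrays had a gap of 0.864, with EGF replicate 4 at 5.28 and the nearest array at 4.90. C5ar1 in the untreated arrays had a gap of 0.872, with untreated replicate 1 at 6.02 and the nearest array at 6.43. Stmn2, a neuron marker, had a gap of 0.889 in the untreated arrays, with untreated replicate 2 at 11.94 and the nearest array at 11.70. Tfrc, a ubiquitous gene, had a gap of 0.846 in the untreated arrays, with untreated replicate 1 at 10.05 and the nearest array at 9.83. No explanation was tested.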

How the results depend on the processing

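Over 18 alternatives, 6 (treat at 1.5-fold) to 10 (median centring and cyclic loess) of the 10 genes were called lower, and 9 whichever array was left out. Treat at 1.5-fold ended the calls of Trem2, Aif1 and P2ry12 (limma adjusted p = 0.0771, 0.0672 and 1). The filter on dim clusters left out P2ry12 and kept 113 of the 141 related genes. Related genes called higher numbered 13, 12 and 14 after quantile normalization, median centring and cyclic loess and 7 under treat, against 23. All genes called higher numbered 7271, 5741 and 6326 after those scalings, 8012 at an adjusted p under 0.01 and 2504 under treat, against 12198. All genes called lower numbered 2686 under treat, against 6351. The scalings moved the median of all genes from 0.17 to between -0.02 and 0.00828. The P2ry12 minus Aif1 shift was 0.38 to 0.52 with 1 array left out. Its exact permutation adjusted p was 0.0571 without EGF replicate 1, 2 or 3 and 0.0286 without each other array. With 1 array left out the test has fewer arrangements, so its p-values move in larger steps. The shift was 0.44, 0.45 and 0.42 without EGF replicate 1, 2 or 3, against 0.45 with all arrays. With the replicate block, 9 of the 10 genes and 86 related genes were called lower. Deviations of same-numbered arrays correlated at -0.0843, -0.00321, -0.0542 and -0.026, so the numbers were not taken to pair the samples. Signals within the receptor range limit the folds of Tyrobp, Trem2, P2ry12, Clec5a, Vav1, C5ar1, Ms4a7, Stab1 and Mrc1.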
